A study of Rattus norvegicus with 3 samples.

Results

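Tissue kallikreins, the kinin receptors and kininogen were read on 3 microarrays of donor kidneys from rats, after warm ischaemia, cold storage and reperfusion with a recipient's blood. The members are all probe sets annotated to Klk1 or to a single Klk1b or Klk1c gene, to either bradykinin receptor (Bdkrb1, Bdkrb2) or to Kng1. They comprised 12 probe sets of 10 genes, among 31099 probe sets and 14218 genes with a symbol of their own. Kng1 had 0 probe sets of its own, and 1 probe set is shared by 3 kininogen genes. The group was chosen by the log2 values of Klk1, Klk1b3 and Klk1c4 on these same 3 arrays, which differed. The differences of these genes are therefore given as a description, with no test.

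The donor kidneys came from male Wistar rats of 370 to 508 g (age is not given in the labels). They were left warm for 20 min after exsanguination, held in cold University of Wisconsin solution for 17 ± 0.7 h, and joined for perfusion to the femoral artery of a living recipient for 5 h 43 min ± 21 min. Recipients were given saline at 1 ml/h (the control group), heparin at 100 U/ml/h, or peptide 2 at 0.5 mg/ml, which the design text derives from the part of CCL5, a chemokine, that binds heparin. There were 7 recipients per group, and no other heparin was used as anticoagulant. The protocol speaks of an infusion and the design text of a bolus. Each array carried equal amounts of RNA from 3 kidneys of 1 group, so a value is that of a pool and no spread between animals can be given. The study asked whether either agent was anti-inflammatory in this model.

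Tissue kallikrein is a serine protease that cuts kininogen and releases kinins such as bradykinin, and in the kidney it is made in the connecting tubule and secreted into the urine. Kinins act on a constitutive B2 receptor and on a B1 receptor that is induced by injury, dilate vessels and promote salt excretion, and are broken down quickly by peptidases such as angiotensin-converting enzyme and neprilysin. Plasma kallikrein, made in the liver and encoded by a separate gene, releases bradykinin in the circulation as part of the contact system. Rats carry a tandem cluster of kallikrein genes that arose by duplication, several of them best known from the salivary gland.

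Values are GCRMA expression values on the log2 scale. A gene is called measured in a comparison when neither array put it under that array's overall median (4.14 in control, 4.16 in heparin and 4.14 in peptide). The lowest value on each array was 2.18, which acts as a floor: 27.2% of probe sets in control, 25.6% in heparin and 27.3% in peptide had it. Arrays have no read depth, and 1 array per group limits the precision. The 3' to 5' gap of the beta-actin control probe sets, an indicator of RNA integrity, was 2.33 in control, 2.95 in heparin and 2.34 in peptide, whereas that of GAPDH was 0.36, 0.32 and 0.37 and that of hexokinase 2.18, 2.18 and 2.28. The heparin array, on which the kallikreins were lowest, had the widest gap for beta-actin but the narrowest for GAPDH, and for hexokinase it equalled control while the peptide array was widest. The part of RNA integrity in the results below was not tested.

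Klk1, a renal tissue kallikrein gene, read 10.12 in control, 8.43 in heparin and 10.92 in peptide. Its value was lowest in the heparin pool and highest in the peptide pool. Klk1 was 3.21-fold lower in heparin than in control, 1.75-fold higher in peptide than in control and 5.62-fold lower in heparin than in peptide. The ranks of Klk1 and Klk1b3 given here and below are a description, since these genes were chosen for their differences. Of 9236 measured genes, 9 including Klk1 differed as far or farther downward between heparin and control. Against control, 105 of 9268 measured genes were as high or higher than Klk1 in peptide. Between heparin and peptide, the direct comparison of the treatments, Klk1 held one of the 3 lowest differences among 9240 genes.

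Klk1b3 is listed in RefSeq with rK-1 and plain Klk1 among its synonyms, while the gene now called Klk1 has rGK-7 among its own. Published names of rat kallikreins can therefore refer to either gene. Klk1b3 read 11.18 in control, 9.71 in heparin and 12.27 in peptide, the same order of arrays as Klk1. It was 2.77-fold lower in heparin and 2.14-fold higher in peptide than in control, and 5.93-fold lower in heparin than in peptide. Of 9240 measured genes, 2 including Klk1b3 were that low or lower in heparin against peptide.

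Klk1c4, another gene of the same tandem cluster, read 6.74 in control, 2.78 in heparin and 7.39 in peptide. The heparin value lay below the median of its array, so only a bound can be given: Klk1c4 was at least 5.97-fold lower in heparin than in control and at least 9.36-fold lower than in peptide. In peptide it was 1.57-fold higher than in control. All 3 kallikreins above the median in control thus had the order heparin, control, peptide from low to high, although both treatments are set against the same control array and a low or high control value moves both differences. The raw log2 difference of Klk1c4 between heparin and control, -3.96, became -1.84 when 32 was added to the unlogged values.

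Counted at 2-fold, both measured members (Klk1 and Klk1b3) were lower in heparin than in control, where 0.747% of all measured genes were, and 0 were higher (1.06% of all genes). In peptide against control, 3 members were measured and 1, Klk1b3, was at least 2-fold higher, beside 0.723% of all genes; 0 were at least 2-fold lower (0.119%). In heparin against peptide, both measured members were at least 2-fold lower (0.844% of all genes) and 0 were higher (0.281%). Because the members were picked for these differences, nothing is read from these counts. The median log2 difference of the measured members was -1.58 between heparin and control, 0.81 between peptide and control and -2.53 between heparin and peptide, beside 0.00 over all measured genes in each comparison. With 1 pool per group these differences have no replicate check.

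**Figure D1:**
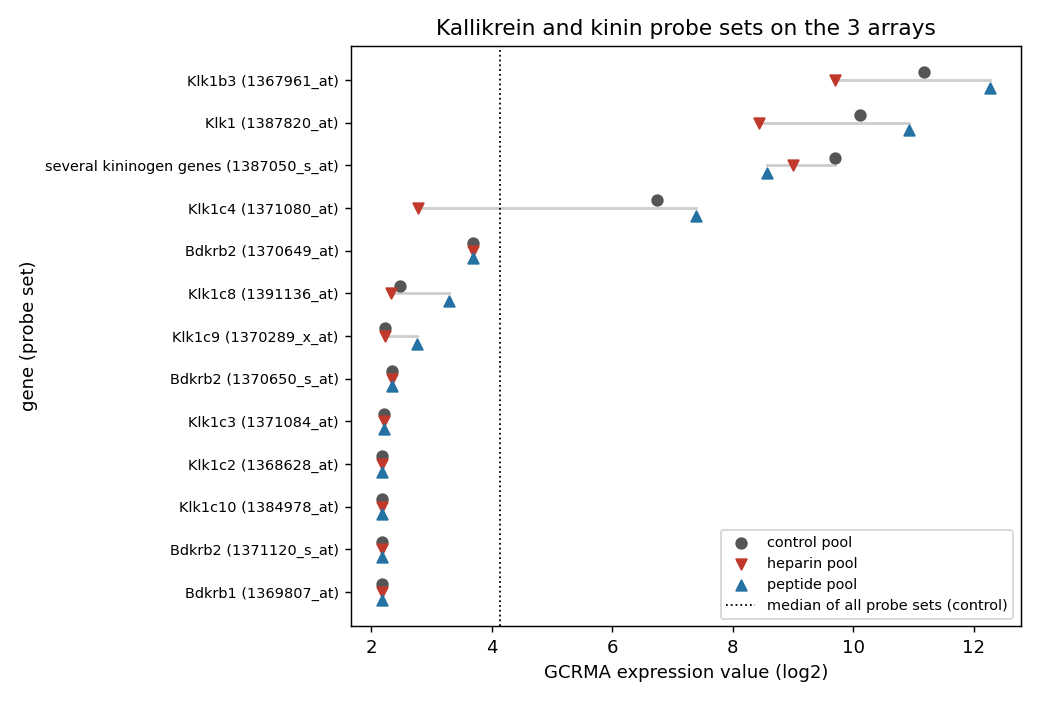
Log2 GCRMA value (x axis) of the 12 kallikrein and kinin receptor probe sets and of the probe set shared by several kininogen genes (y axis), with 1 point per array; small vertical offsets separate the points, grey lines span the 3 arrays and the dotted line is the control median of 4.14. Klk1, Klk1b3 and Klk1c4 are lowest in heparin and highest in peptide, the kininogen probe set is lowest in peptide at 8.56, and all other probe sets lie below the median.

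The 5 other Klk1-family genes on the arrays were all below the median in every pool. Klk1c2, which encodes tonin, an enzyme that can form angiotensin II, and Klk1c10, whose product in the salivary gland can release kinin from T-kininogen, were at the lowest value on all 3 arrays. Klk1c3 read 2.22 on each array. Klk1c8 read 2.48 in control, 2.34 in heparin and 3.29 in peptide, and Klk1c9 read 2.23, 2.23 and 2.76. Both were highest in the peptide pool, but at levels below the median, where no fold is given. Together with both receptor genes, 7 of the 10 member genes (70.0%) were below the median on all arrays, against 34.4% of all genes. A value near the floor does not show that a transcript was absent.

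The Klk1 family lies on chromosome 1 in the RefSeq annotation of the GRCr8 assembly, where its 10 annotated genes span 335.2 kb among other kallikrein genes and pseudogenes. Klk1 is at 103779152-103783270, Klk1b3 at 103845647-103849854, 66.5 kb further along, and Klk1c4 at 103571089-103575208, 208.1 kb before Klk1. Genes below the median lie between those above it: Klk1c3, at 29.0 kb, separates Klk1 from Klk1b3, and Klk1c2, Klk1c8 and Klk1c9 lie between Klk1c4 and Klk1. The high and low values were therefore interleaved along the cluster. Because family members are near copies of each other, a probe set may also bind transcripts of its neighbours; the probe sequences were not used here, and each gene name is that of the platform annotation.

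**Figure D2:**
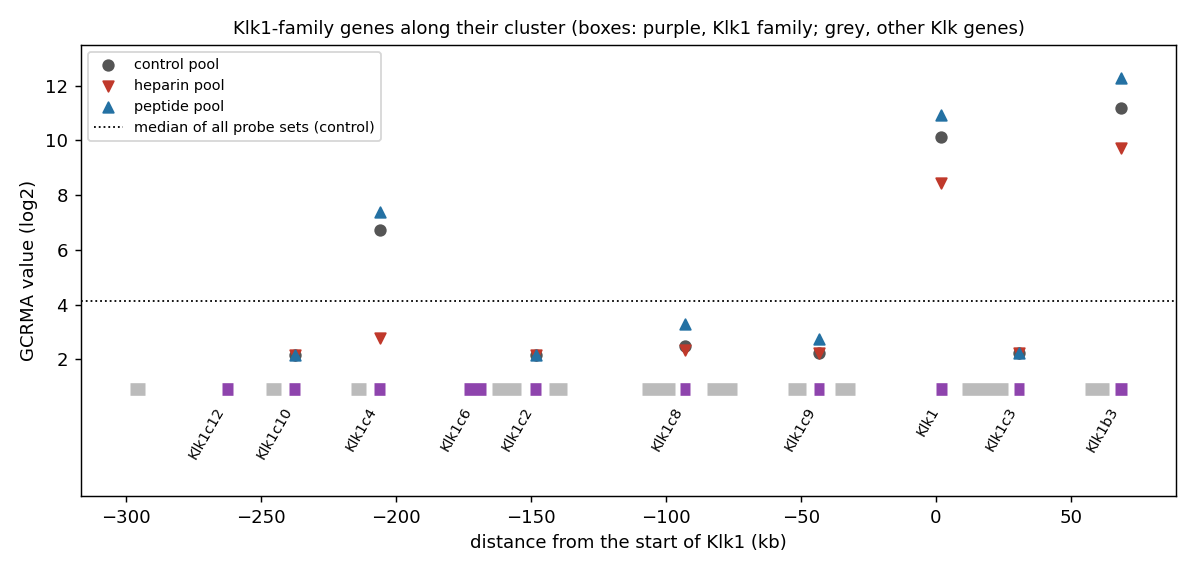
Log2 GCRMA value (y axis) of each Klk1-family gene on the 3 arrays against the distance of the gene from the start of Klk1 in kb (x axis); boxes at the bottom mark gene positions, purple for the Klk1 family and grey for other kallikrein genes and pseudogenes. Klk1, Klk1b3 at 66.5 kb and Klk1c4 at -208.1 kb stand above the dotted median line of 4.14, except for the heparin value of Klk1c4 at 2.78, and the 5 others with a probe set lie below it.

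Promoter sequences are shown for the 3 kallikreins that differed between the arrays, to set out how alike their upstream sequences are. The part of these sequences in the order of arrays was not tested. RefSeq promoter windows of GRCr8 (250 bases before to 50 bases after the annotated start) were found for 9 of the 11 member names and for 9 Klk1-family genes. In the sequences below, capitals mark the longest run that all 9 family promoters share, AGGGCCCTCCCCT, and an A and T rich box, TTTAAAGG. The windows are chr1:103778902-103779201 on the plus strand (Klk1), chr1:103845397-103845696 on the plus strand (Klk1b3) and chr1:103575159-103575458 on the minus strand (Klk1c4).
Klk1: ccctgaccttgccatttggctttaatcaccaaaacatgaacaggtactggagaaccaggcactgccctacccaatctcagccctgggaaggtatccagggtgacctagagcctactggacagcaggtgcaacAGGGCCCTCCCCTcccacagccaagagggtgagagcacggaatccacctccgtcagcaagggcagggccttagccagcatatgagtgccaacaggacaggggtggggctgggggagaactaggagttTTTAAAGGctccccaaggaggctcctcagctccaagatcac
Klk1b3: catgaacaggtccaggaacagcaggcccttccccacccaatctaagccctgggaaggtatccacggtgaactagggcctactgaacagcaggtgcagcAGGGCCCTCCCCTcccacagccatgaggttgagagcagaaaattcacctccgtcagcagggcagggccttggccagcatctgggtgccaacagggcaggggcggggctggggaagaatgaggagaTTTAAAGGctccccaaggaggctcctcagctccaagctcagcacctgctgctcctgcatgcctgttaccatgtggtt
Klk1c4: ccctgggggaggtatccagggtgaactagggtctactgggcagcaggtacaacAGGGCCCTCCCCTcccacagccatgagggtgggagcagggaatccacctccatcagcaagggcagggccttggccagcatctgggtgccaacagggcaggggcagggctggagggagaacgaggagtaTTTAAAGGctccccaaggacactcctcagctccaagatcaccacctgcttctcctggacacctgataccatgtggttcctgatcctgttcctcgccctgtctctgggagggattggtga

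The box began 27 bases before the annotated start of Klk1b3 and 69 bases before that of Klk1c4, but 9 bases after that of Klk1, so the annotated starts of these genes are not at equivalent places. Around the box the remaining 6 family promoters were nearly the same. They are shown from 12 bases before the box to 24 bases after it, with the box in capitals, because 4 of these genes were below the median on every array. The windows are chr1:103633003-103633046 (Klk1c2, minus strand), chr1:103808069-103808112 (Klk1c3, plus), chr1:103684239-103684282 (Klk1c8, plus), chr1:103543632-103543675 (Klk1c10, minus), and, for the genes without a probe set of their own, chr1:103612362-103612405 (Klk1c6, minus) and chr1:103518714-103518757 (Klk1c12, minus).
Klk1c2: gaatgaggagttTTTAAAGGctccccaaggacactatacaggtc
Klk1c3: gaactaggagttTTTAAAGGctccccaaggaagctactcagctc
Klk1c8: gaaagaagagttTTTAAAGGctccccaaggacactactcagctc
Klk1c10: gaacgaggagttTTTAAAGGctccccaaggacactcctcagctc
Klk1c6: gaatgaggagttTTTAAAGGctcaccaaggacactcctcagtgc
Klk1c12: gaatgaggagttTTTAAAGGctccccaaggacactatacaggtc

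Over a window from 120 bases before the box to 20 bases after it, pairs of the 9 promoters were identical at 77.6% to 95.3% of aligned positions, with a median of 87.4% over 36 pairs. Klk1 and Klk1b3 were 87.3% identical, Klk1 and Klk1c4 89.3%, and Klk1b3 and Klk1c4 88.7%. Klk1 was closer to Klk1c3 (92.6%), and Klk1c4 to Klk1c10 (95.3%), both of which were below the median on all arrays. All windows were also searched on both strands for 7 motifs, given here by their letters. The shared run AGGGCCCTCCCCT is by its definition in 9 of 9 family promoters. It was in 16 of 27457 promoters of the same length (0.058%), the 9 of the family included. TTTAAAGG, on which the aligned windows were placed, was in 9 of 9 and in 1.70%. Both were taken because the family shares them, so nothing is read from their 9 of 9 counts. The longer box TTTTTAAA, which overlaps TTTAAAGG, was in 7 of 9 (not Klk1b3 or Klk1c4) and in 4.37% of all. The CACCC motif was in 9 of 9 and in 55.1% of all. The GC box GGGCGG was in 6 of 9, among them Klk1b3 but neither Klk1 nor Klk1c4, and in 34.9% of all. TATAAA (14.3% of all) and the steroid receptor half-site TGTTCT (20.1% of all) were in 0 of 9 windows, which says only that these letters are not there.

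Of the kinin receptors, Bdkrb2, the B2 receptor through which bradykinin acts, had 3 probe sets that read 3.69, 2.35 and 2.18, each with identical values on all 3 arrays. Bdkrb1, the inducible B1 receptor, was at the lowest value on every array. Identical values do not show equal abundance, and with all their probe sets under the median neither receptor gene could be compared between pools. Of the 12 member probe sets, 7 had identical values on the 3 arrays and 4 of these were at the floor. Over all probe sets 27.2%, 25.6% and 27.3% were at the floor in control, heparin and peptide. Identical values were common among measured genes too, at 30.1% in heparin against control, 39.5% in peptide against control and 29.5% in heparin against peptide. Nothing is read from the counts of members.

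Kininogen, the substrate, could be read only as a group. The probe set shared by Kng1, Kng2 and Kng2l1 names no single gene and was not counted among the members. It read 9.70 in control, 8.997 in heparin and 8.56 in peptide, highest in control and lowest in peptide. The shared kininogen signal was 1.63-fold lower in heparin than in control and 2.20-fold lower in peptide than in control. Between the treatments it was higher in heparin than in peptide by 0.43 on the log2 scale, opposite in direction to Klk1, Klk1b3 and Klk1c4. Kng2l1 on its own was at the lowest value on all arrays.

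The other genes of the pathway were taken from a list of 47 names, of which 41 were on the arrays and 24 were measured on all 3. The list holds other activators, inhibitors of the proteases, kinin-degrading peptidases and signalling genes downstream of the receptors. In heparin against control 1 of 24 was at least 2-fold higher and 0 were at least 2-fold lower, with a median of 0.00. For peptide against control the counts were 0 and 0 with a median of 0.01, and for heparin against peptide 0 and 0 with a median of -0.02. The medians of this list were thus near those of all genes. By direction alone, 8 of the 24 genes were higher, 10 lower and 6 identical in heparin against control, where 25.8% of all measured genes were higher and 44.2% lower. In peptide against control 13 were higher, 1 lower and 10 identical, beside 2967 higher and 2642 lower of 9268 genes in all, and in heparin against peptide 5 were higher and 13 lower, beside 26.8% and 43.7%. These tallies depend on the scaling, since it moves identical values to either side: after quantile normalization 17 were higher and 7 lower in heparin against control, 13 and 11 in peptide against control and 14 and 10 in heparin against peptide. Over all genes that scaling gave 5585 higher and 3630 lower, 3440 and 5755, and 5803 and 3419. After median centring the list tallies were 7 higher and 17 lower, 23 and 1, and 5 and 19. Over all genes they were then 2190 and 7046, 6677 and 2591, and 2235 and 7005. The order of arrays seen in the kallikreins was heparin, control, peptide from low to high, with each step at least 0.01. It was held by 13.8% of the 9231 genes measured on all 3 arrays, 11.4% after quantile normalization and 18.8% after median centring. Of the 24 list genes 4 and 6 held it under these scalings, and 5 as deposited. These were Spint2, a Kunitz-type protease inhibitor, Xpnpep1 and Xpnpep2, aminopeptidases that can cut bradykinin, Plcb1, a phospholipase C, and Mme, picked out here for that order after their values were seen. Their values were 11.47 in control, 11.25 in heparin and 11.65 in peptide for Spint2, and 10.65, 10.55 and 10.88 for Xpnpep1. Xpnpep2 read 9.84, 9.63 and 9.93, and Plcb1 7.46, 7.26 and 7.49, and in each comparison all 5 genes differed by less than Klk1.

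Among activators, Klkb1, which encodes plasma kallikrein, and F12, its activator in the contact system, were at the lowest value on all arrays. Serping1, the C1 inhibitor that blocks plasma kallikrein, read 9.99 in control, 10.75 in heparin and 10.36 in peptide, a difference of 0.76 between heparin and control. Of the carboxypeptidases, which can remove the last residue of kinins, Cpe, carboxypeptidase E, was the list member past 2-fold, at 7.18 in control, 8.47 in heparin and 7.60 in peptide. Cpm, carboxypeptidase M, which turns bradykinin into a ligand of the B1 receptor, read 7.53, 8.10 and 8.43. Its value was highest in the peptide pool, but a second probe set of Cpm read 6.56, 6.57 and 6.56 and did not share that order.

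Neprilysin, encoded by Mme, is a main kinin-degrading enzyme of the kidney and differed little, at 9.34 in control, 9.28 in heparin and 9.45 in peptide. Ace, angiotensin-converting enzyme, read 3.24, 2.68 and 4.23, above the median in peptide alone, and its other probe set was at the floor, so no fold is given. Aminopeptidase N, Anpep, read 11.75, 12.01 and 12.30. Thop1, thimet oligopeptidase, read 5.37, 4.84 and 5.37, lowest in heparin. Downstream of the receptors, Nos3, the endothelial nitric oxide synthase, read 7.19, 7.17 and 7.19, and Ptgs2, the inducible cyclooxygenase, 9.62, 10.09 and 9.63. Kallikrein-related peptidases outside the Klk1 family were represented by Klk6, Klk8 and Klk10, and all 3 were at the lowest value on every array.

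Markers of the tubule segments were read beside the kallikreins. Over all genes, 9231 of 14218 were measured on all 3 arrays. Proximal tubule markers were measured for 14 of 15 genes on the arrays, thick ascending limb markers for 10 of 10, intercalated cell markers for 8 of 11 and principal cell and sodium channel genes for 19 of 22. Distal and connecting tubule markers were measured for 9 of 16, a smaller share than over all genes. Pvalb and Atp2b4 were at the lowest value on all arrays. In whole-kidney RNA, fewer cells of a type and less RNA per cell cannot be told apart.

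For distal and connecting tubule markers the median difference was -0.25 in heparin against control, with 8 of 9 lower and 1 identical, and 1 at least 2-fold lower. Among all measured genes 44.2% were lower and 0.747% at least 2-fold lower. After quantile normalization 8 of the 9 markers were lower, and after median centring all 9, beside 3630 and 7046 of 9236 genes. The marker past 2-fold was Calb1, calbindin of the connecting tubule, which read 11.01 in control, 9.18 in heparin and 10.79 in peptide. Slc8a1, the sodium-calcium exchanger of the same segment, read 8.43, 7.55 and 8.24, and its other probe set was at 2.18 throughout. Slc12a3, the thiazide-sensitive cotransporter of the distal convoluted tubule, read 10.16, 9.82 and 9.99, and S100g, calbindin-D9k, 6.23 on all 3 arrays. Of the kinases that regulate this cotransporter, Stk39 read 7.99, 7.55 and 7.77 and Wnk1 10.90, 10.76 and 10.56. The other Stk39 probe set read 6.42 on every array. Another Wnk1 probe set read 8.50, 7.96 and 8.21, lowest in heparin, and its remaining ones were below the median. Fxyd2, a subunit of the sodium pump, which differed from control by -0.25 in heparin and 0.10 in peptide, was the 1 of 9 markers with the order of the kallikreins. Trpv5, the calcium channel of the distal nephron, lay below the median on every array at 2.58, 2.55 and 2.58. The summed unlogged signal of the 16 markers was 32119 in control, 26963 in heparin and 32157 in peptide. By count, most of the measured markers were lower in the heparin pool, as the kallikreins were. The part of these markers in the kallikrein result was not tested.

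In peptide against control the 2 sets did not go the same way. The median of the distal and connecting tubule markers was -0.08, with 2 of 10 higher, 5 lower and 3 identical, and Calb1 differed by -0.22, while Klk1 was 0.81 and Klk1b3 1.10 higher on the log2 scale. In heparin against peptide the list median was -0.18, with 1 of 9 higher, 7 lower and 1 identical, beside 26.8% higher and 43.7% lower of all genes. Calb1 differed by -1.61 there and Klk1 by -2.49.

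Genes of principal cells and the sodium channel had medians of -0.13, 0.11 and -0.13 in heparin against control, peptide against control and heparin against peptide. The order of the kallikreins was held by 8 of the 19 measured genes, and by 8 under either other scaling as well. Over all genes the shares were 13.8% as deposited, 11.4% after quantile normalization and 18.8% after median centring. Scnn1a, the alpha subunit of the epithelial sodium channel, had the array order of the kallikreins at a smaller size, with 9.45 in control, 8.95 in heparin and 9.68 in peptide. Prss8, the channel-activating serine protease prostasin, read 9.42, 9.16 and 9.80, and Hsd11b2, which protects the mineralocorticoid receptor from cortisol or corticosterone, 9.73, 9.33 and 9.85. Furin, a protease that can cut channel subunits, was also lowest in heparin and highest in peptide, at 8.34, 8.14 and 8.52. Kcnj1, the potassium channel ROMK and the gene with the second largest difference of the list, had another order at 10.02 in control, 9.76 in heparin and 9.37 in peptide. Aqp4, a water channel, was highest in control at 8.90, 8.44 and 8.41. The water channels Aqp2 (11.41, 11.67 and 11.41) and Aqp3 (10.87, 11.16 and 10.87) were highest in heparin. The list thus held several orders, and 0 of its 19 genes differed by 2-fold in any comparison. Intercalated cell markers had medians of 0.06, 0.07 and 0.02, thick ascending limb markers -0.05, 0.00 and -0.09, and proximal tubule markers 0.05, 0.06 and -0.12. The genes of these lists with the widest differences were Rhcg, an ammonia transporter (8.39, 7.74 and 8.32), Ptger3, a prostaglandin E2 receptor (9.56, 10.19 and 9.02), and Slc4a4, a bicarbonate cotransporter (11.67, 11.06 and 11.67). A second Ptger3 probe set read 6.17, 6.17 and 6.01 and did not share the rise in heparin. That of Slc4a4 read 9.48, 8.89 and 9.65, also lowest in heparin. The order of the kallikreins was held by 1 of 8, 2 of 10 and 1 of 14 genes of the 3 lists, and the counts differed by at most 1 under the other scalings.

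Kallikreins are also made in exocrine glands, kininogen in liver, and neutrophils carry kallikrein as well. Of 23 exocrine markers on the arrays, 19 were below the median in all pools, where 34.4% of all genes were. The lowest value was held by 13, among them the pancreatic genes Prss1, Prss2, Cpa1 and Ctrb1 and the salivary genes Smr3a and Smr3b. The exocrine list had 4 measured genes, with medians of 0.10, 0.61 and -0.24 in the order of comparisons above. Gp2, a glycoprotein of zymogen granules that is also made in the kidney tubule, read 5.85 in control, 9.49 in heparin and 6.60 in peptide. Cela1, an elastase, read 9.34, 9.16 and 9.88, the order of the kallikreins, and Spink1, a trypsin inhibitor, 8.44, 8.74 and 9.12. The fourth was Egf, which is also on the distal tubule list. The summed unlogged signal of the exocrine list was 12828, 12689 and 13372, of which Egf made up 91.0%, 85.6% and 87.3%. Without Egf the sums were 1152, 1823 and 1696, lowest in control. The part of these genes in the kallikrein values was not tested.

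Of 16 liver markers 12 were below the median in all pools, where 34.4% of all genes were, and 7 of the 12 were at the lowest value. On all arrays 3 were measured. These 3 had different orders, so the medians of the list (0.00, 0.76 and -0.75, over 4, 3 and 3 genes) rest on few genes that differ. Cyp2c11, a cytochrome P450, read 4.58 in control, 6.73 in heparin and 7.48 in peptide, Fgb, a fibrinogen chain, 6.76, 6.56 and 5.81, and F2, prothrombin, 4.98, 4.98 and 5.74. Alb, albumin, read 4.94, 4.94 and 2.77, and the other probe sets of Alb and Fgb were below the median with identical values on all arrays. Fgb and Alb were lowest in peptide, as the shared kininogen probe set was, while Cyp2c11 and F2 were highest there. With averaged probe sets the liver medians were 1.07 in heparin against control and 1.83 in peptide against control, and with no filter on low values that of peptide against control was 0.00. The summed signal was 264.3, 332.7 and 365.1, highest in peptide, and without Cyp2c11 it was 240.3, 226.4 and 186.8, lowest in peptide. The order without Cyp2c11 rests largely on Fgb, the brightest marker left on each array, and is not one that the list shared. The part of liver transcripts in the kininogen values was not tested.

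Neutrophil markers were measured for 8 of 9 genes, with medians of -0.04, 0.12 and -0.05. Their summed signal was 14318 in control, 12935 in heparin and 16509 in peptide, of which S100a8 and S100a9, the calprotectin subunits, made up 85.6%, 88.5% and 90.6%. These were the 2 of 8 genes with the order of the kallikreins, at 12.13, 12.01 and 12.51 for S100a8 and 12.92, 12.84 and 13.16 for S100a9. Lcn2, lipocalin 2, which injured tubules also make, read 10.26, 9.23 and 9.08, and Mmp8, neutrophil collagenase, 6.79, 6.32 and 6.32. Fcnb, a ficolin, read 8.13, 8.46 and 8.92, and Mmp9, gelatinase B, 5.84, 6.12 and 6.22. Without S100a8 and S100a9 the sum was 2056, 1484 and 1544, highest in control, so the neutrophil list had no common order, and its part in the kallikrein values was not tested.

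**Figure D3:**
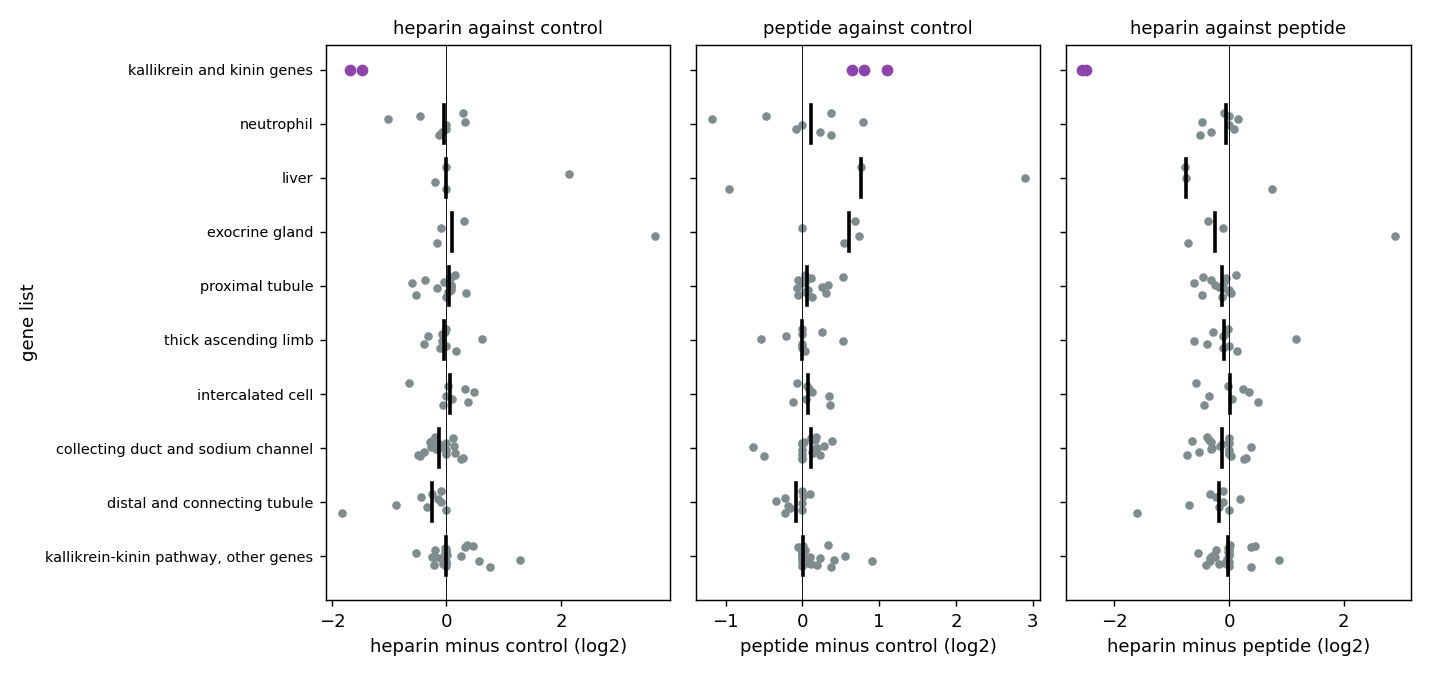
Log2 difference (x axis) of each measured gene by gene list (y axis), 1 panel per comparison; grey points are genes, black bars list medians, and purple points the measured kallikrein and kinin genes, which were chosen for these differences. In heparin against control Klk1 lies at -1.68 and Klk1b3 at -1.47, Calb1 of the distal and connecting tubule markers lies farther left at -1.83, and Gp2 of the exocrine list lies at the far right at 3.63.

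Genes with the pattern most like that of Klk1 were sought among 9231 genes measured on all 3 arrays, by the distance between the pairs of log2 differences from control in heparin and peptide. Klk1b3 itself was nearest, at a distance of 0.36, followed closely by Inmt, an indolethylamine methyltransferase, at 0.36. Next came Fam83h (0.55), the histone gene Hist4h4 (0.63), Il23a, a subunit of interleukin 23 (0.64), and Kif11, a kinesin of the mitotic spindle (0.72). Inmt read 8.13 in control, 6.78 in heparin and 9.06 in peptide, and Il23a 6.66, 5.17 and 8.08. Both were lowest in heparin and highest in peptide by more than 2-fold between the treatments. Kif11 is the weakest match, since its second probe set read 6.31, 6.22 and 6.31. A likeness over 3 arrays is a description only, because 3 values allow many genes to share an order.

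**Figure D4:**
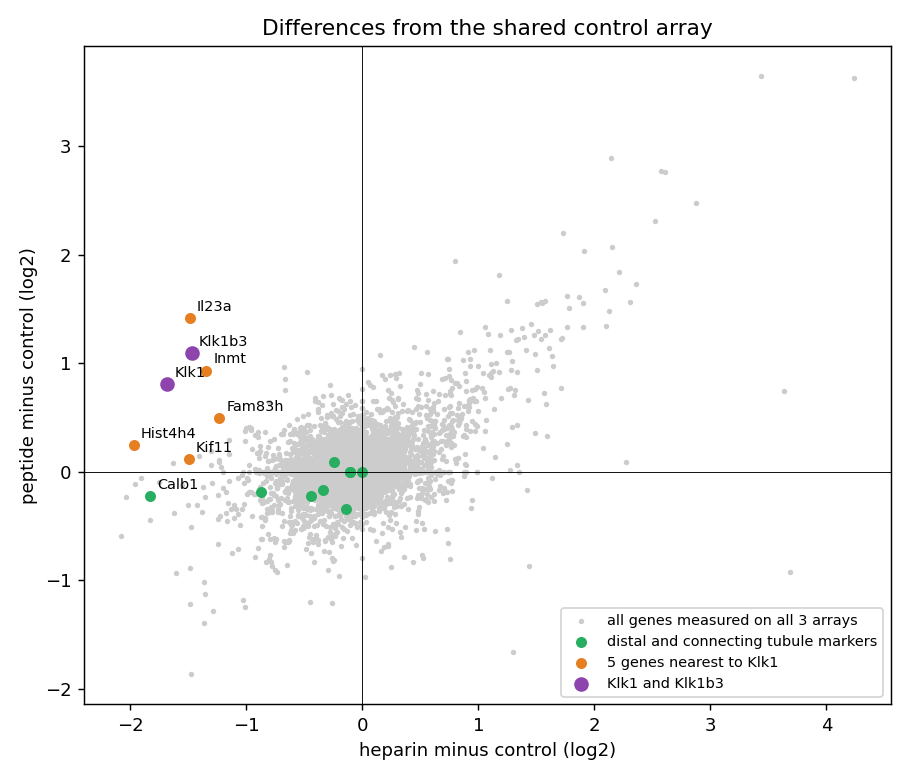
Log2 difference of heparin minus control (x axis) against peptide minus control (y axis) for 9231 genes measured on all 3 arrays (grey), with Klk1 and Klk1b3 in purple, the 5 other genes nearest to Klk1 in orange and measured distal and connecting tubule markers in green; both axes use the same control array. Klk1 and Klk1b3 sit at the upper left, at -1.68 and 0.81 and at -1.47 and 1.10, and Calb1 lies below the horizontal line at -1.83 and -0.22.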

How the data were processed

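RNA of 3 kidneys per group was pooled and measured on 1 Affymetrix array each. The authors deposited log2 expression values per probe set. GCRMA is named in the submitters' processing notes without a version and the sources used here do not give its settings or say whether arrays were normalized to each other. Values were used as deposited. Gene names came from the platform annotation (20832 probe sets with 1 symbol), and a gene was represented by its probe set with the highest mean. All 10 member genes had the same symbol in RefSeq (GRCr8), which also gave positions and promoters. Klk10 to Klk15 are not members, since the rule means Klk1, Klk1b and Klk1c genes.

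Differences of log2 values were counted at 2-fold among genes not under the median of either array. Where one array had a gene under its median and the other past its 60th percentile, a bound was taken as the brighter value less the dim array's median (or less the dim value, if higher). The text names all member probe sets, the 5 genes nearest to Klk1, some preset genes, and, from each of 10 lists (166 of 204 entries on the array) with measured genes, the 1 to 6 with the largest differences. Genes named for holding the order of the kallikreins, Alb, Aqp2 and Aqp3 were named beyond this rule after their values were seen. The members and lists were chosen with earlier results of these data known. With 1 array per group no test was made. The counting step was run on simulated data with differences set well past 2-fold in bright genes. That run does not bear on values near the threshold or the floor, or on the error between pools. Promoter windows were aligned with Biopython 1.88, and other steps used Python 3.11.15, numpy 2.4.6 and pandas 2.3.3. The order of arrays, the split sums and their checks were added after the values were seen. Alternatives were other filters, quantile normalization, median centring, 32 added to unlogged values, other uses of probe sets and a 1.5-fold threshold.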

Additional observations from a re-analysis of the deposited data

How the results depend on the processing

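Across the settings run on single genes (quantile normalization, median centring, 32 added to unlogged values, averaged probe sets of a gene), the log2 difference between heparin and control ranged from -1.70 to -1.60 for Klk1, from -1.49 to -1.43 for Klk1b3 and from -3.98 to -1.84 for Klk1c4. That of the shared kininogen probe set ranged from -0.73 to -0.67 under those of the settings that apply to it. For peptide against control the ranges were 0.79 to 0.81, 1.08 to 1.10, 0.52 to 0.65 and -1.16 to -1.08, and for heparin against peptide -2.51 to -2.39, -2.59 to -2.52, -4.63 to -2.36 and 0.40 to 0.49. Of 132 and 260 recomputed values for the main counts and medians and for lists and single genes, 20 and 11 moved and 0 reversed. Only a log2 value of at least 2-fold size could be called reversed, so no count and no list median could be. Some list medians near 0 did change sign. That of the pathway list in heparin against peptide went from -0.02 to 0.04 after quantile normalization. The exocrine median in heparin against control went from 0.10 to -0.10 with the filter at the 60th percentile.

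With no filter on low values the member medians became 0.00 (heparin against control), 0.27 (peptide against control) and -0.27 (heparin against peptide). The 7 members below the median on all arrays then enter, and in the heparin comparisons Klk1c4 as well. With no filter or one at the 40th percentile, 3 members instead of 2 were at least 2-fold lower in heparin in both of its comparisons, because Klk1c4 then counts. At 1.5-fold, 3 members instead of 1 were higher in peptide than in control. Of the 11 values that moved among lists and single genes, 2 were the Klk1c4 differences with 32 added (-1.84 and -2.36) and 9 were list medians, 8 of them of the liver list. In peptide against control the liver median of 0.76 became 0.00 with no filter or the 40th percentile, 0.43 with 32 added and 1.83 with averaged probe sets, and the exocrine median of 0.61 became 0.00 with no filter. In heparin against peptide the liver median of -0.75 became 0.00 with no filter or the 40th percentile and -0.43 with 32 added, and in heparin against control that of 0.00 became 1.07 with averaged probe sets. The remaining changes were in counts over all genes. For heparin against control these were 281 higher and 311 lower at 1.5-fold, 40 lower with 32 added and 127 lower with each probe set on its own. In peptide against control there were 196 higher and 85 lower at 1.5-fold, 7 lower with the filter at the 60th percentile and 6 lower with 32 added. In heparin against peptide there were 150 higher and 422 lower at 1.5-fold, 49 higher with no filter, 16 higher with the filter at the 60th percentile, 15 higher and 40 lower with 32 added, 13 higher with averaged probe sets and 125 lower with each probe set on its own. The cause was not tested. Signal near the floor limits the receptors and 5 kallikreins, and 1 pool per group leaves no estimate of error. No paired analysis was possible because each group has 1 array.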
